A study of Mus musculus with 24 samples.

Results

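The lysosomal genes examined here were 37 genes of a written list, covering lysosomal membrane proteins, cathepsins, other luminal hydrolases, activator and lipid-binding proteins, the receptors that sort enzymes to the lysosome, subunits of the proton pump and the transcription factor Tfeb. All 37 were among the 17464 genes of the expression table, and all 37 passed the filter on low values. They were measured by bulk RNA-seq in regulatory T (Treg) cells sorted from the spleens of 8 mice labelled WT C57BL/6JRccHsd, of which 4 were young (aged 2 months) and 4 were old (aged 26 months). The subsets were resting Treg cells (rTreg; sorted as CD62L+ CD44-), activated Treg cells (aTreg; CD62L- CD44+) and KLRG1+ Treg cells (kTreg), and the 24 libraries formed 6 groups of 4. The mice carried no labelled transgene and no treatment. The design names 4 young and 4 old mice as the source of all 3 subsets. That libraries with the same age and sample number came from the same mouse was read from the sample codes and is not stated, and counts of mice here rest on that reading. The list was drawn up by name and function, with earlier results of these data known. Its marker genes Lamp1 and Gm2a were expressed in every library.

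The lysosome is the acidic compartment in which cells break down proteins, lipids, glycogen and glycans delivered by endocytosis and autophagy. Its soluble enzymes are tagged with mannose 6-phosphate in the Golgi and carried onward by the mannose 6-phosphate receptors, while a proton pump, the V-ATPase, keeps the lumen acidic. TFEB, the product of Tfeb, binds the E-box CACGTG and switches on many lysosomal genes, and enlarged lysosomes rich in beta-galactosidase, the product of Glb1, are a classical stain of senescent cells.

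Because TFEB reads the E-box, promoters that hold it are shown here for 5 members, with the E-box in capitals. Promoters of 250 bases before to 50 bases after the start (RefSeq, GRCm38.p6) were found for 30 members. Asah1, Atp6v1h, Ctsh, Ctsb, M6pr, Sort1 and Npc1 had no entry. CACGTG, which reads the same on both strands, lay in 10 of the 30 promoters, 33.3% of them, against 8.09% of the promoters of 27025 genes. The longer TCACGTG, which contains it and was searched on both strands, lay in 9 of the 30 against 4.29% of all genes. The members with CACGTG were Lamp1, Mcoln1, Cln3, Ctsd, Ctsl, Ctsa, Glb1, Gaa, Igf2r and Atp6v0d1. The stretches are 100 bases each, read 5′ to 3′ on the strand of the gene, and their positions were found by exact match to GRCm39. Positions are counted back from the RefSeq start, so that -1 is the last base before it.
Lamp1 (chr8:13209051-13209150, plus strand, bases -110 to -11): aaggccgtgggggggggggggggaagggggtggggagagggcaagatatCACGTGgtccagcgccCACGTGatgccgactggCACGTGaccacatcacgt
Igf2r (chr17:12988594-12988693, minus strand, bases -100 to -1): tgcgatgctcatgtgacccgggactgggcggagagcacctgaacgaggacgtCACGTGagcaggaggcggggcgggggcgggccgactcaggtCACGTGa
Mcoln1 (chr8:3550382-3550481, plus strand, bases -137 to -38): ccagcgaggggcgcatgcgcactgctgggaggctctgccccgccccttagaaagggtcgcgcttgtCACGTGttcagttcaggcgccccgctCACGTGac
Gaa (chr11:119158638-119158737, plus strand, bases -151 to -52): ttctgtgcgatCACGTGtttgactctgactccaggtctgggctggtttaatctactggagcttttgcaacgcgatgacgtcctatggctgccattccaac
Glb1 (chr9:114230046-114230145, plus strand, bases -100 to -1): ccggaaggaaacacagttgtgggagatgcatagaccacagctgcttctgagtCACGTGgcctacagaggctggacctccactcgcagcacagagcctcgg
Lamp1 held 4 E-boxes before its RefSeq start, of which 3 lie wholly in the stretch shown. Mcoln1 and Igf2r held 2 each, and Gaa and Glb1 1 each. GENCODE, the source of the gene positions given below, places some gene starts farther upstream. By it the last 30 bases shown for Lamp1, Mcoln1 and Gaa, the last 21 for Igf2r and the last 2 for Glb1 are exon. The E-boxes at -28 in Lamp1, -7 in Igf2r and -45 in Mcoln1 lie in these exon bases. Over both ages Gaa was higher and Igf2r lower in kTreg than in rTreg cells, while Lamp1, Glb1 and Mcoln1 were not called. Within young mice Lamp1 was also lower in kTreg cells. A match of letters is a description of the promoter, not evidence that a factor binds there.

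The libraries held 15045747 to 29521942 reads assigned to genes of the table. The values are normalized counts, the reads of a gene divided by 1 size factor per library, so they are comparable between libraries for a gene but not between genes of different length. A gene was called where the limma adjusted p was below 0.05 and the fold change above 1.5, and log2 fold changes are on the log2(normalized count + 1) scale. Foxp3, the defining gene of Treg cells, stood between 5079 and 37793 in every library, and Klrg1 between 16559 and 41561 in kTreg libraries against at most 357 elsewhere. Some libraries stood apart. Young kTreg replicate 2 had a summed level of 48372 over 16 macrophage and monocyte markers, where the other young kTreg libraries had 539 to 1539. The rTreg and aTreg libraries of the same young mouse were also raised, at 10149 and 3605, where the other young rTreg and aTreg libraries had 142 to 1404. Old rTreg libraries had 10372 to 27256 for these markers, 22576 to 38689 for 4 plasma cell markers and 3144 to 8230 for 5 basophil and mast cell markers, and 655 to 11640 for 8 neutrophil markers. In old rTreg cells Lyz2 alone had a median of 12945, where the sum of the 16 macrophage and monocyte markers had a median of 14074.5. In each of these libraries 4 to 8 of the 16 were at 0. Young kTreg replicate 4 listed 4913 genes at 0, against 419 to 2756 in the other libraries, and old aTreg replicate 2 had the lowest Foxp3. Macrophages are rich in lysosomes, so these values are given again beside the genes they touch. In bulk libraries, fewer cells of a type and less RNA per cell cannot be told apart.

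Apart from Ctsl and Sort1, each of the 37 members had a value above 0 in every library. Their levels were not compared with those of other genes. Per kilobase of transcript, the scale on which genes can be compared, Laptm5, a lysosomal membrane protein of immune cells, had the highest median level over the 24 libraries, 18497 normalized counts per kilobase. Its lowest library, at 13038 per kilobase, was above the highest library of Ctss, the cysteine protease cathepsin S, at 10194. Ctss followed with a median of 8075 per kilobase. Psap, the precursor of the saposin activators, and Ctsd, the aspartic protease cathepsin D, had medians of 3924 and 3876 per kilobase, with ranges over the libraries that overlapped. At the lower end, Ctsh had a median of 164 per kilobase, Npc1, a cholesterol exporter, 65.0, and Ctsl, cathepsin L, 35.6. Sort1, which encodes the sorting receptor sortilin, was near absent, with a median of 0.464 per kilobase, a listed 0 in 6 of 24 libraries and 235 normalized counts at most, in young kTreg replicate 2. The source of beta-galactosidase, Glb1, ranked 22 of 37, at 680 per kilobase, and Tfeb ranked 32, at 297.

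Comparing kTreg with aTreg cells, the other antigen-experienced subset, addressed what sets kTreg cells apart at the level of lysosomal transcripts. Over both ages 3 members were called higher in kTreg cells, Ctsh, Gm2a and M6pr, and 2 lower, Lipa and Igf2r, while 32 were not called. As background, 4.13% of the 16630 genes tested were called higher and 3.26% lower, against 8.11% and 5.41% of the members. The median log2 fold change of the members was 0.07, and that of all genes -0.08. Leaving out old mouse 2 left 3 calls, and leaving out single libraries or mice gave between 3 and 7. Without the fold threshold 9 members were called, against 12.1% of all genes. More members were called within young than within old mice, and Lipa was called within neither age alone. Within young mice 7 members were called higher, Lamp2, Ctsh, Ctsz, Man2b1, Gm2a, M6pr and Tfeb, and 2 lower, Lamp1 and Igf2r, against 3.46% and 3.49% of all genes. Within old mice 1 member was called higher by limma, Ctsh, and 0 lower, against 1.33% and 0.866% of all genes. An unadjusted limma p below 0.05 was seen in 7 members, and the share of all genes at that cut was not counted.

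Against rTreg cells, the resting subset, more members were called, and so were more of all genes. In kTreg cells 7 members were called higher, Lamp2, Ctsb, Ctsh, Gaa, Gm2a, Grn and M6pr, and 2 lower, Lipa and Igf2r. The background was 9.37% of all genes called higher and 6.09% lower, against 18.9% and 5.41% of the members. The median log2 fold change of the members was 0.18, and that of all genes -0.01. Both comparisons use the same kTreg libraries, so their calls are not independent of each other. Without the fold threshold 18 members were called, against 22.8% of all genes. Within young mice 10 members were called higher, Lamp2, Ctsb, Ctsh, Ctsz, Ctsa, Gaa, Man2b1, Gm2a, Grn and M6pr, and 2 lower, Lamp1 and Igf2r, against 8.24% and 7.56% of all genes. Within old mice 1 was called higher, M6pr, and 1 lower, Igf2r, or 2.70% of the members in each direction, against 5.77% and 3.09% of all genes. The share of members called higher was thus above that of all genes in young mice. In old mice it rested on 1 member, too few to place it above or below that of all genes. The difference between the ages is tested gene by gene as an interaction further on.

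aTreg cells differed from rTreg cells in fewer members. Grn was called higher, and Ctsh and Igf2r lower, against a background of 5.23% of genes higher and 2.78% lower, or 2.70% and 5.41% of the members. The members' median log2 fold change, 0.06, was that of all genes, 0.06. Without the fold threshold 9 members were called, against 10.5% of all genes. Within young mice Lamp2, Gaa and Grn were called higher and Npc2 and Igf2r lower, against 2.71% and 0.637% of all genes. Within old mice 2 members were called lower, Ctsh and Igf2r, and 0 higher by limma, against 3.78% and 4.82% of all genes. At an unadjusted limma p below 0.05 there were 12 members, and the share of all genes at that cut was not counted.

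**Figure D1:**
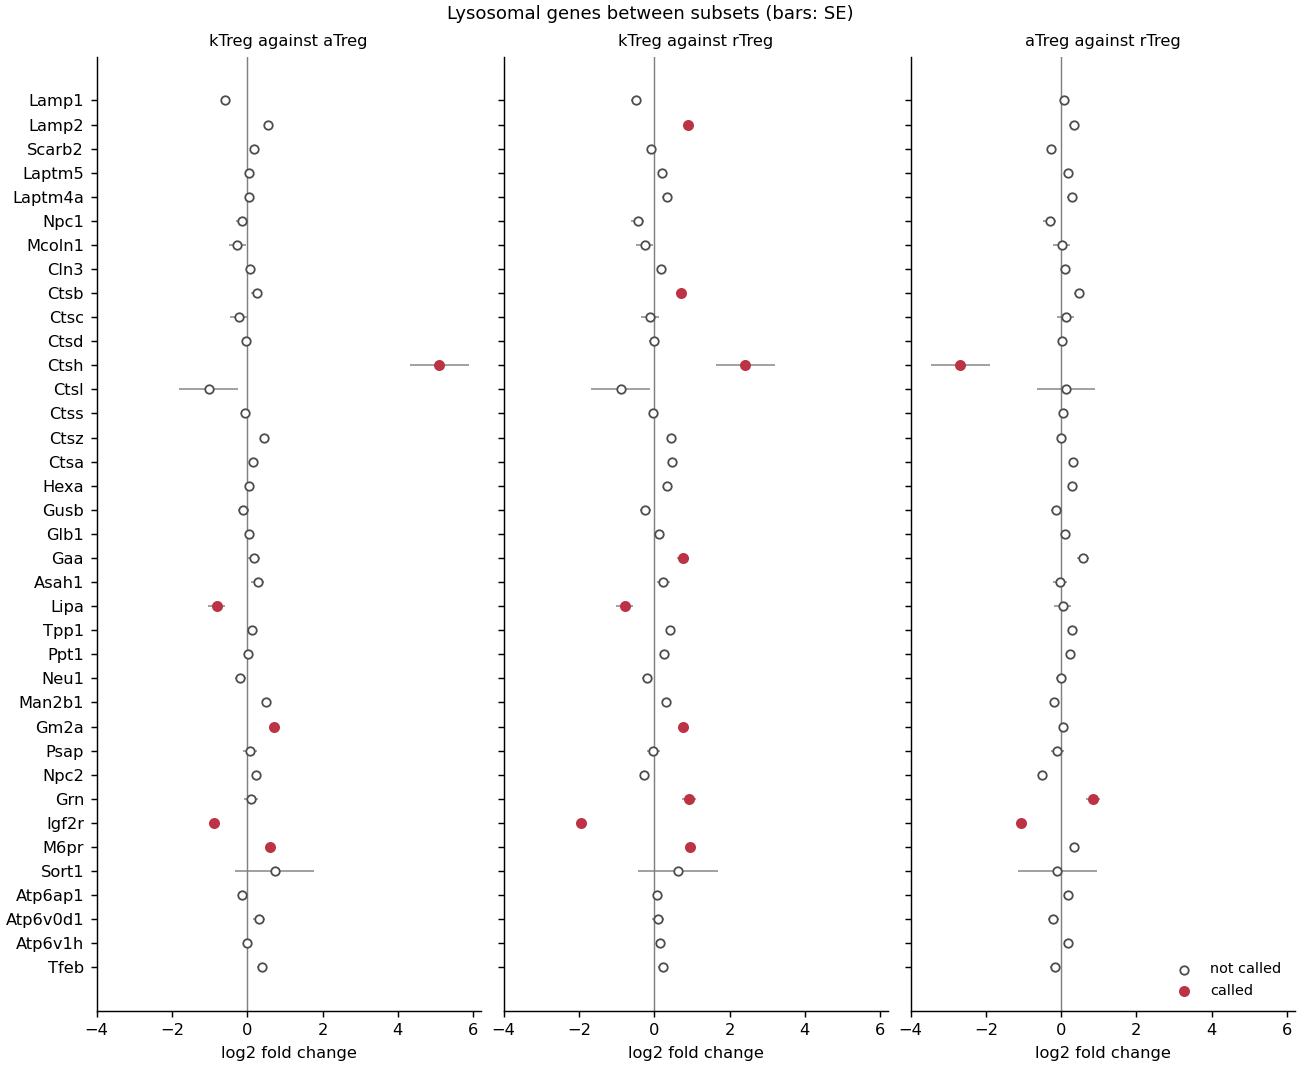
Log2 fold changes (horizontal axis) of the 37 lysosomal genes, in the order of their roles, in kTreg against aTreg, kTreg against rTreg and aTreg against rTreg cells, over both ages. Points are limma estimates from 24 libraries, bars are SE, and filled points were called. Most members lie near 0, Ctsh is far to the right in the first 2 panels and far to the left in the third, and Igf2r is to the left in all 3.

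The sorting receptors held the clearest opposition. Igf2r encodes the cation-independent mannose 6-phosphate receptor, a large receptor that also clears IGF2 at the cell surface (chr17:12901293-12988614, minus strand, GRCm39). In rTreg cells Igf2r stood at 5222, 5533, 5766 and 7073 in young mice and at 4000, 3147, 3127 and 3783 in old mice. In aTreg cells Igf2r was 3356, 4385, 3343 and 3693 in young mice and 1186, 819, 1738 and 1641 in old mice. In kTreg cells Igf2r was 791, 1109, 1055 and 1041 in young mice and 1272, 1251, 1613 and 1490 in old mice. Every kTreg library was below every rTreg library, and young kTreg libraries were also below every young aTreg library, whereas old kTreg and old aTreg libraries overlapped. Igf2r fell by 1.94 on the log2 scale in kTreg against rTreg cells (SE 0.13, adjusted p = 7.97e-10), lower in 8 of 8 mice. It fell by 0.89 in kTreg against aTreg cells (SE 0.13, adjusted p = 9.83e-05; lower in 6 of 8 mice) and by 1.06 in aTreg against rTreg cells (SE 0.13, adjusted p = 1.31e-05; lower in 8 of 8 mice). These 3 calls held under all 45 alternatives.

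M6pr encodes the other receptor of this pair, the smaller, cation-dependent one (chr6:122285616-122294639, plus strand). In rTreg cells M6pr stood at 5838, 6105, 6170 and 6398 in young mice and at 8389, 8116, 7587 and 7268 in old mice. In aTreg cells M6pr was 8376, 8756, 8280 and 9270 in young mice and 8157, 7233, 9703 and 10454 in old mice. In kTreg cells M6pr was 15479, 14920, 13628 and 15185 in young mice and 11564, 11481, 14064 and 11130 in old mice. All 8 kTreg libraries were above all 16 others. M6pr rose by 0.94 on the log2 scale in kTreg against rTreg cells (SE 0.07, adjusted p = 2.64e-09) and by 0.61 against aTreg cells (SE 0.07, adjusted p = 6.44e-06), both higher in 8 of 8 mice. The call against aTreg cells rests on the fold threshold: the log2 fold change was 0.56 without old aTreg replicate 2, 0.57 without old kTreg replicate 3, 0.57 without old mouse 2 and 0.55 without the 3 libraries that stand apart, all just under 1.5-fold. M6pr lies 25701 bases from Klrg1, the gene whose product defined the sort, and shares 57.1% of its exon bases with Phc1, on the opposite strand. Phc1 had a median of 248 normalized counts, and its log2 fold change was 0.54 against rTreg (adjusted p = 0.33) and 0.40 against aTreg cells (adjusted p = 0.55). The strand setting of the count is not given in the sources used here.

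Set against each other, the 2 receptors gave a wide range of ratios. The ratio of M6pr to Igf2r, in normalized counts not corrected for length, was 1.05 ± 0.0984 (SD, n = 4) in young rTreg, 2.37 ± 0.249 in young aTreg and 15.1 ± 3.04 in young kTreg cells. In old mice it was 2.26 ± 0.30, 6.92 ± 1.38 and 8.62 ± 0.789 in the same order. Young kTreg libraries, at 12.9 to 19.6, did not overlap with any other group, while old aTreg libraries, at 5.58 to 8.83, overlapped with old kTreg libraries, at 7.47 to 9.18.

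**Figure D2:**
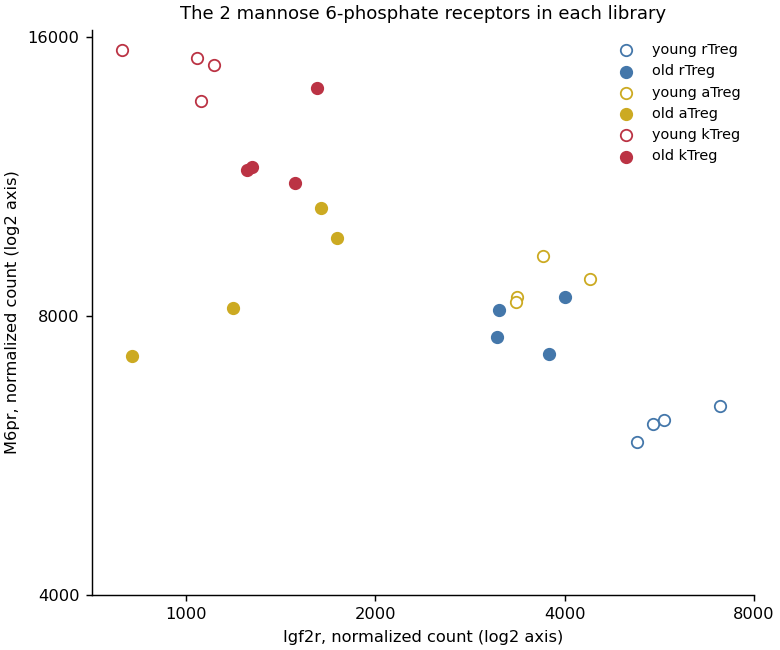
Normalized counts of Igf2r (horizontal, log2 axis) and M6pr (vertical, log2 axis) in each of the 24 libraries, coloured by subset, open for young and filled for old mice. Young rTreg libraries sit at the lower right, with M6pr between 5838 and 6398, young kTreg libraries at the upper left, with Igf2r between 791 and 1109. Old aTreg libraries, with Igf2r between 819 and 1738, lie far to the left of young aTreg libraries.

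Among the activators, Gm2a encodes the protein that lifts the ganglioside GM2 out of the membrane for beta-hexosaminidase A (chr11:54988883-55003855, plus strand). In rTreg cells Gm2a was 7948, 7416, 6547 and 6799 in young mice and 9160, 7692, 7270 and 9140 in old mice. In aTreg cells Gm2a stood at 6208, 6900, 6044 and 6264 in young mice and at 11056, 13233, 8613 and 8344 in old mice. In kTreg cells Gm2a stood at 18511, 14534, 16128 and 15435 in young mice and at 10950, 10931, 10919 and 10170 in old mice. All 4 young kTreg libraries were above the other 20, whereas old kTreg libraries lay within the range of old aTreg libraries. Gm2a rose by 0.77 on the log2 scale in kTreg against rTreg cells (SE 0.09, adjusted p = 7.51e-07; 8 of 8 mice) and by 0.71 against aTreg cells (SE 0.09, adjusted p = 1.10e-05; 6 of 8 mice). Within young mice the log2 difference from aTreg cells was 1.34 (SE 0.12, adjusted p = 4.52e-07), and within old mice it was 0.08 (SE 0.12, adjusted p = 0.85). The alpha subunit of the enzyme it serves, Hexa, was not called, with log2 fold changes of 0.04 against aTreg and 0.33 against rTreg cells.

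Grn encodes progranulin, a secreted and lysosomal protein cut into granulins (chr11:102321141-102327874, plus strand). In rTreg cells Grn was 1006, 1120, 609 and 756 in young mice and 1840, 2080, 1259 and 2318 in old mice. In aTreg cells Grn was 1864, 2049, 1792 and 2141 in young mice and 2547, 2105, 2597 and 2933 in old mice. In kTreg cells Grn was 2129, 5459, 1927 and 1925 in young mice and 2571, 1949, 2174 and 2110 in old mice. Young rTreg libraries were below all others, and young kTreg replicate 2, the library with the highest macrophage and monocyte markers, was far above its group. Grn rose by 0.93 on the log2 scale in kTreg against rTreg cells (SE 0.18, adjusted p = 0.000729; 6 of 8 mice) and by 0.84 in aTreg against rTreg cells (SE 0.18, adjusted p = 0.00410; 8 of 8 mice), and these calls held under all 45 alternatives. Between kTreg and aTreg cells the log2 fold change was 0.09 (SE 0.18, adjusted p = 0.81). Of the other activators and lipid-binding proteins, Psap and the cholesterol carrier Npc2 were not called between subsets over both ages. Npc2 was 6797, 5585, 7496 and 6174 in young rTreg, 4371, 3758, 4109 and 3727 in young aTreg and 5123, 4295, 5195 and 6496 in young kTreg cells. Young aTreg libraries were below all young rTreg libraries, with a log2 fold change of -0.70 (SE 0.14, adjusted p = 0.00401).

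Among the cathepsins, Ctsh, which encodes an aminopeptidase, had the largest fold change between kTreg and aTreg cells of the 37 members (chr9:89936205-89958148, plus strand). In rTreg cells Ctsh was 11.3, 614, 36.9 and 20.1 in young mice and 366, 226, 312 and 128 in old mice. In aTreg cells Ctsh was 11.1, 587, 6.43 and 6.06 in young mice and 16.4, 5.17, 11.8 and 13.0 in old mice. In kTreg cells Ctsh was 493, 1481, 470 and 666 in young mice and 328, 506, 832 and 434 in old mice. Apart from the library of young mouse 2, aTreg libraries did not pass 16.4 and kTreg libraries did not fall below 328. The libraries of young mouse 2 and of old rTreg cells, in which Ctsh was high outside kTreg cells, were those with raised macrophage and monocyte markers, from 3605 to 48372 in sum. In old kTreg libraries the same markers summed to 2468 to 4521, and in old aTreg libraries to 327 to 633. In young kTreg replicate 4, the library with 4913 genes at 0, 13 of the 16 markers were at 0, their sum was 539, and Ctsh was 666. The part of other cells in the Ctsh values was not tested.

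Ctsh rose by 5.10 on the log2 scale in kTreg against aTreg cells (SE 0.79, adjusted p = 0.000163; 8 of 8 mice), and this call held under all 45 alternatives, with values from 3.91 to 5.86. Against rTreg cells it rose by 2.42 (SE 0.79, adjusted p = 0.0295; 7 of 8 mice), and in aTreg against rTreg cells it fell by 2.68 (SE 0.79, adjusted p = 0.0305; lower in 8 of 8 mice). The call against rTreg cells was lost in 12 of 32 fits that left out a library or a mouse. These fits left out young rTreg replicate 1, 3 or 4, young kTreg replicate 2, old rTreg replicate 4, old kTreg replicate 3, young mouse 1, 3 or 4, or old mouse 2, 3 or 4, and their values lay from 2.09 to 2.45. It was also lost with edgeR (1.61, adjusted p = 0.165) and DESeq2 (1.61, adjusted p = 0.126) on the recovered reads, and without the 3 libraries that stand apart (2.16). The aTreg against rTreg call was also lost in 12, without young rTreg replicate 2, young aTreg replicate 1, 3 or 4, old rTreg replicate 1 or 3, old aTreg replicate 2, young mouse 3, or old mouse 1, 2, 3 or 4, with values from -2.87 to -2.07, as well as with edgeR (-2.31, adjusted p = 0.102) and in a fit of only the groups compared (adjusted p = 0.0590).

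Ctsb encodes cathepsin B, an abundant cysteine protease (chr14:63358384-63383372, plus strand). In rTreg cells Ctsb was 11157, 13744, 10193 and 10342 in young mice and 17678, 17463, 15972 and 14450 in old mice. In aTreg cells Ctsb was 16875, 16952, 16969 and 17958 in young mice and 20140, 16438, 22039 and 24717 in old mice. In kTreg cells Ctsb was 19840, 45567, 20002 and 19701 in young mice and 21021, 18269, 22902 and 19541 in old mice. All kTreg libraries were above all rTreg libraries, and the macrophage-rich young kTreg replicate 2 had more than any other library. Ctsb rose by 0.72 on the log2 scale in kTreg against rTreg cells (SE 0.14, adjusted p = 0.000459; 8 of 8 mice). Without young kTreg replicate 2 the log2 fold change was 0.57 (adjusted p = 3.57e-05), under 1.5-fold. Against aTreg cells it was 0.25 (SE 0.14, adjusted p = 0.27).

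**Figure D3:**
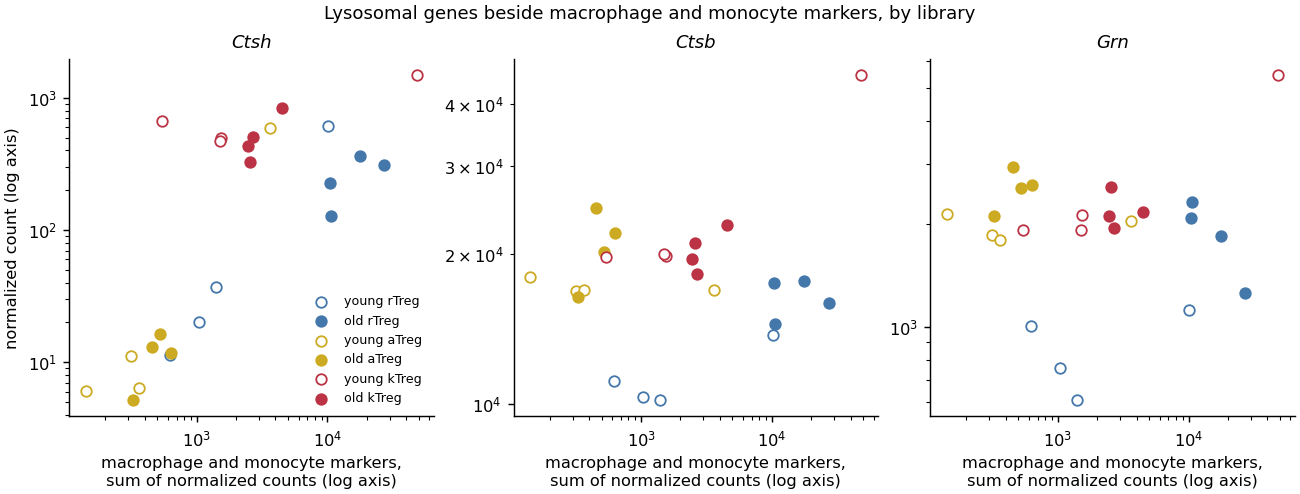
Normalized counts of Ctsh, Ctsb and Grn (vertical, log axes) against the summed normalized counts of 16 macrophage and monocyte markers (horizontal, log axis) in 24 libraries, coloured by subset, open for young and filled for old mice. The single library at the far right, young kTreg replicate 2 with a sum of 48372, is the highest for all 3 genes, and old rTreg libraries, with sums of 10372 and above, lie below kTreg libraries in Ctsb.

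Ctsa encodes a carboxypeptidase that holds beta-galactosidase and neuraminidase in a protective complex (chr2:164674778-164682961, plus strand). In rTreg cells Ctsa was 5318, 4745, 4527 and 4304 in young mice and 7624, 7332, 7145 and 6276 in old mice. In aTreg cells Ctsa was 6046, 5562, 5838 and 5956 in young mice and 8305, 11574, 7483 and 8705 in old mice. In kTreg cells Ctsa was 8870, 8533, 8132 and 8509 in young mice and 7213, 7460, 7865 and 8053 in old mice. In young mice the 3 subsets did not overlap and their levels went from rTreg over aTreg to kTreg cells, while in old mice kTreg libraries overlapped with both other subsets. Over both ages the log2 fold change of 0.48 against rTreg cells (SE 0.07, adjusted p = 3.92e-05) was under 1.5-fold and so was not called. Within young mice it was 0.85 (SE 0.10, adjusted p = 3.32e-06), and within old mice 0.11 (SE 0.10, adjusted p = 0.55). Ctsc, Ctsd, Ctsl, Ctss and Ctsz, the remaining cathepsins, were not called between subsets over both ages. Ctsz, a carboxypeptidase, was 3401, 3741, 3515 and 2751 in young rTreg, 3887, 3625, 3626 and 3776 in young aTreg and 4880, 7499, 4878 and 5913 in young kTreg cells. All young kTreg libraries were above the other young libraries, with log2 fold changes of 0.61 against aTreg (adjusted p = 0.00551) and 0.78 against rTreg cells (adjusted p = 0.000255).

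Of the other luminal hydrolases, Gaa, Lipa and Glb1 are described. Lipa encodes acid lipase, which frees cholesterol and fatty acids from lipoprotein lipids (chr19:34469712-34522163, minus strand). In rTreg cells Lipa was 2138, 2212, 1921 and 2522 in young mice and 2728, 1768, 1558 and 1555 in old mice. In aTreg cells Lipa was 1934, 2262, 2155 and 2344 in young mice and 2012, 2119, 1816 and 1930 in old mice. In kTreg cells Lipa was 1446, 2934, 1456 and 489 in young mice and 1288, 1093, 809 and 1046 in old mice. All kTreg libraries but the macrophage-rich young replicate 2 were below every rTreg and aTreg library, and the lowest, young replicate 4, was the library with the most genes at 0. Lipa fell by 0.81 on the log2 scale against aTreg cells (SE 0.23, adjusted p = 0.0197) and by 0.78 against rTreg cells (SE 0.23, adjusted p = 0.0152), each lower in 7 of 8 mice. Without young kTreg replicate 4 these were -0.58 and -0.54, under 1.5-fold, and without young mouse 4 they were -0.56 and -0.50. The call against aTreg cells was also lost without young mouse 3 (-0.84), old mouse 2 (-0.81), old mouse 3 (-0.77) or old mouse 4 (-0.82).

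Gaa encodes acid alpha-glucosidase, which breaks down glycogen in the lysosome (chr11:119158708-119176525, plus strand). In rTreg cells Gaa was 629, 1020, 535 and 763 in young mice and 820, 1038, 1449 and 1018 in old mice. In aTreg cells Gaa was 1022, 1495, 1192 and 1520 in young mice and 1322, 947, 1644 and 1428 in old mice. In kTreg cells Gaa was 1127, 1854, 1364 and 1165 in young mice and 1843, 1397, 1343 and 2009 in old mice. Of the 24 libraries, 3 young rTreg libraries were lowest, and kTreg and aTreg libraries overlapped. Gaa rose by 0.77 on the log2 scale in kTreg against rTreg cells (SE 0.16, adjusted p = 0.00113; 7 of 8 mice). In aTreg against rTreg cells the value was 0.58 (SE 0.16, adjusted p = 0.0203), at 1.49-fold and so not called.

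Glb1, the gene of beta-galactosidase, was not called between subsets (chr9:114230144-114303966, plus strand). In rTreg cells Glb1 was 1404, 1709, 1176 and 1262 in young mice and 1959, 1617, 1692 and 1663 in old mice. In aTreg cells Glb1 was 1551, 1365, 1627 and 1740 in young mice and 1633, 2106, 1675 and 1541 in old mice. In kTreg cells Glb1 was 1958, 1870, 1881 and 1530 in young mice and 1493, 1826, 1565 and 1434 in old mice. The 6 groups overlapped with each other. Young kTreg libraries at 1958, 1870 and 1881 were above every young rTreg and aTreg library, while that at 1530 was not. Glb1 was not called between kTreg and the other subsets within young mice. The log2 fold change was 0.03 in kTreg against aTreg (SE 0.09, adjusted p = 0.86), 0.13 in kTreg against rTreg (SE 0.09, adjusted p = 0.35) and 0.09 in aTreg against rTreg cells (SE 0.09, adjusted p = 0.65). It was called in no age comparison or interaction either. These are transcript levels, and enzyme activity was not part of this table. Hexa, Gusb, Asah1, Tpp1, Ppt1, Neu1 and Man2b1, the remaining hydrolases, were not called between subsets over both ages either. Man2b1, the acid alpha-mannosidase, was 3476, 4433, 3951 and 4238 in young rTreg, 3307, 4668, 3951 and 4470 in young aTreg and 5318, 7838, 5754 and 6343 in young kTreg cells. All young kTreg libraries were again above the other young libraries, with log2 fold changes of 0.62 against aTreg (adjusted p = 0.00535) and 0.64 against rTreg cells (adjusted p = 0.00173).

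Among the membrane proteins, Lamp1 and Lamp2, the heavily glycosylated proteins that line the lysosome, had opposite signs. In rTreg cells Lamp2 was 934, 1227, 703 and 848 in young mice and 1708, 1451, 1490 and 1568 in old mice. In aTreg cells Lamp2 was 1419, 1646, 1231 and 1619 in young mice and 1642, 1321, 1509 and 1752 in old mice. In kTreg cells Lamp2 was 2835, 3209, 2468 and 1661 in young mice and 2177, 1872, 1871 and 2127 in old mice. Within each age, every kTreg library was above every rTreg and aTreg library. Lamp2 (chrX:37488520-37545340, minus strand) rose by 0.91 on the log2 scale in kTreg against rTreg cells (SE 0.12, adjusted p = 1.12e-05; 8 of 8 mice). Against aTreg cells the value was 0.56 (SE 0.12, adjusted p = 0.00404; 8 of 8 mice), under 1.5-fold.

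Lamp1 (chr8:13209121-13227360, plus strand), whose promoter held the 4 E-boxes, had lower values in kTreg cells. In rTreg cells Lamp1 was 8457, 7973, 8936 and 9608 in young mice and 7574, 6497, 8079 and 7947 in old mice. In aTreg cells Lamp1 was 8331, 8832, 7676 and 8385 in young mice and 7975, 11120, 8705 and 8066 in old mice. In kTreg cells Lamp1 was 4807, 8096, 4637 and 3799 in young mice and 6619, 5992, 6157 and 6942 in old mice. Apart from young replicate 2, at 8096, the young kTreg libraries were the 3 lowest of the 24. The log2 fold change against aTreg cells was -0.58 (SE 0.11, adjusted p = 0.00121; lower in 8 of 8 mice), which is 1.498-fold and so just missed the fold threshold. Against rTreg cells it was -0.50 (SE 0.11, adjusted p = 0.00212; lower in 7 of 8 mice). Within young mice both were called, at -0.70 against aTreg (SE 0.16, adjusted p = 0.00671) and -0.77 against rTreg cells (SE 0.16, adjusted p = 0.00125). With TMM or upper-quartile scaling the call against aTreg cells was made over both ages too, at -0.59 and -0.60. Without the macrophage-rich young kTreg replicate 2 both passed, at -0.69 (adjusted p = 8.03e-06) and -0.61 (adjusted p = 9.47e-06). The call against aTreg cells was likewise made without young aTreg replicate 3, old aTreg replicate 1, 3 or 4, or old kTreg replicate 1 or 4, with values from -0.61 to -0.59. Lamp1 shares 49.2% of its exon bases with Grtp1 on the opposite strand, which had a median of 56.1 normalized counts. Scarb2, Laptm5, Laptm4a, Npc1, Mcoln1 and Cln3, the remaining membrane proteins, were called in no subset or age comparison.

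**Figure D4:**
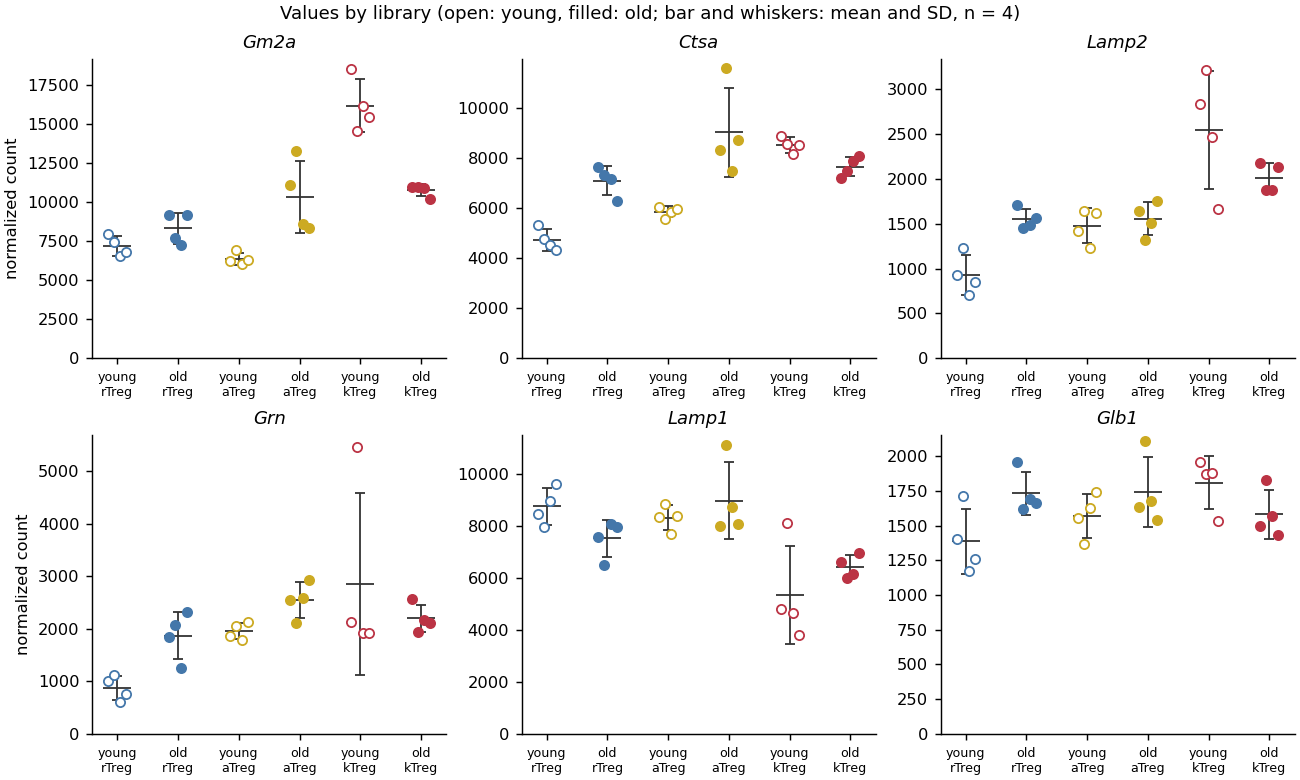
Normalized counts (vertical axes) of Gm2a, Ctsa, Lamp2, Grn, Lamp1 and Glb1 in each library of the 6 groups. Open points are young and filled points old mice, and the bar with whiskers is the mean with SD (n = 4). Gm2a, Ctsa and Lamp2 step up from young rTreg to young kTreg libraries with a smaller spread between subsets in old mice. The groups overlap in Glb1.

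Tfeb itself and the 3 pump subunits were not called between subsets over both ages (Tfeb: chr17:48047837-48103348, plus strand). In rTreg cells Tfeb was 592, 883, 579 and 625 in young mice and 575, 1151, 626 and 913 in old mice. In aTreg cells Tfeb was 538, 593, 686 and 733 in young mice and 670, 583, 714 and 652 in old mice. In kTreg cells Tfeb was 842, 994, 899 and 1265 in young mice and 725, 706, 844 and 625 in old mice. All young kTreg libraries were above all young aTreg libraries, and old libraries overlapped. Over both ages the log2 fold change against aTreg cells was 0.39 (SE 0.14, adjusted p = 0.0719; higher in 7 of 8 mice), and within young mice it was 0.64 (SE 0.20, adjusted p = 0.0469). Atp6ap1, Atp6v0d1 and Atp6v1h were called in no subset or age comparison. Of the 10 members with a CACGTG promoter, Gaa was called higher and Igf2r lower in kTreg against rTreg cells, with a median log2 fold change of 0.05. Of the 20 members with a promoter without it, 3 were called higher and 1 lower, with a median of 0.22. Of all genes, 9.37% were called higher and 6.09% lower. The others called higher, Ctsb, Ctsh and M6pr, were among the 7 members with no promoter entry, and the split was not tested.

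Age was compared within each subset, between 4 old and 4 young mice. In rTreg cells Lamp2, Ctsa and Grn were called higher and Igf2r lower in old mice. As background, 4.12% of genes were called higher and 1.71% lower, against 8.11% and 2.70% of the members. Lamp2 rose by 0.77 on the log2 scale (SE 0.18, adjusted p = 0.00894), Grn by 1.11 (SE 0.26, adjusted p = 0.0115) and Ctsa by 0.59 (SE 0.10, adjusted p = 0.00100). Igf2r fell by 0.75 (SE 0.18, adjusted p = 0.0155). For all 4 genes the old and young rTreg libraries did not overlap. That held for 8 of the 37 members in all, called or not, and the share among all genes was not counted. The number of calls depended on young libraries: it was 1 without young rTreg replicate 3, 2 without young rTreg replicate 4, 0 without young mouse 3 and 8 without young mouse 2. Lamp2 and Grn were at 0.65 and 0.95 without young rTreg replicate 3, and Igf2r at -0.66 without young rTreg replicate 4, each with an adjusted p above 0.05. Grn was also not called without old mouse 4 (0.99), nor Igf2r without young mouse 3 (-0.75). Ctsa, at 1.503-fold, was not called in 10 of 32 fits with a library or mouse left out, with values of 0.54 to 0.58, among them those without young rTreg replicate 3 or 4 and old rTreg replicate 1, 2 or 3. It was also not called with TMM scaling (0.56), upper-quartile scaling (0.53) or edgeR (0.56). All 4 old rTreg libraries had raised sums of macrophage, plasma cell and basophil markers. The macrophage and monocyte sum came mostly from Lyz2. Of 15 such markers tested, limma called 0 higher and 0 lower between old and young rTreg cells. The part of all these markers in the calls of members was not tested.

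In aTreg cells Ctsa and Gm2a were called higher and Igf2r lower in old mice, against a background of 1.85% of genes higher and 0.86% lower, or 5.41% and 2.70% of the members. Igf2r fell by 1.51 on the log2 scale (SE 0.18, adjusted p = 5.98e-05), and this call held under all 45 alternatives. Gm2a rose by 0.67 (SE 0.12, adjusted p = 0.00217) and Ctsa by 0.61 (SE 0.10, adjusted p = 0.00135). Old and young aTreg libraries did not overlap in these 3 genes. They did not overlap in 9 of the 37 members in all, called or not, and the share among all genes was not counted. Old aTreg replicate 2, the library with the lowest Foxp3, was the highest in Gm2a and Ctsa and the lowest in Igf2r. Without it, Gm2a was at 0.55 and Ctsa at 0.48, both under 1.5-fold, and the count was 1. Ctsa was also not called without young aTreg replicate 2 (0.58). Macrophage and monocyte markers summed to 327 to 633 in old and 142 to 3605 in young aTreg libraries. The 4 plasma cell markers summed to 1243 to 4207 in old and 130 to 2593 in young aTreg libraries, and 1 of them, Jchain, was called higher in old aTreg cells (5.82 on the log2 scale, adjusted p = 0.0272). Their part in the calls was not tested.

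In kTreg cells 0 members were called between old and young mice by limma, against a background of 1.02% of genes higher and 0.235% lower. At an unadjusted p below 0.05, 12 members differed, against 15.5% of all genes, and 1 of them, Mcoln1, by over 1.5-fold, against 11.4%. Mcoln1 was 1602, 1601, 1653 and 332 in young kTreg cells and 1885, 1894, 1987 and 1877 in old ones. The value of 332 was in young replicate 4, the library with the most genes at 0. Gm2a came closest, with a log2 fold change of -0.58 (SE 0.12, adjusted p = 0.0168), which is 1.498-fold. Its 4 old kTreg libraries were all below its 4 young ones. edgeR and DESeq2 on the recovered reads each called 1 member, Gm2a. It was also called by limma without young kTreg replicate 2 (-0.63), without young kTreg replicate 4 (-0.60), and without old kTreg replicate 1, 2 or 3 (-0.59 each).

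**Figure D5:**
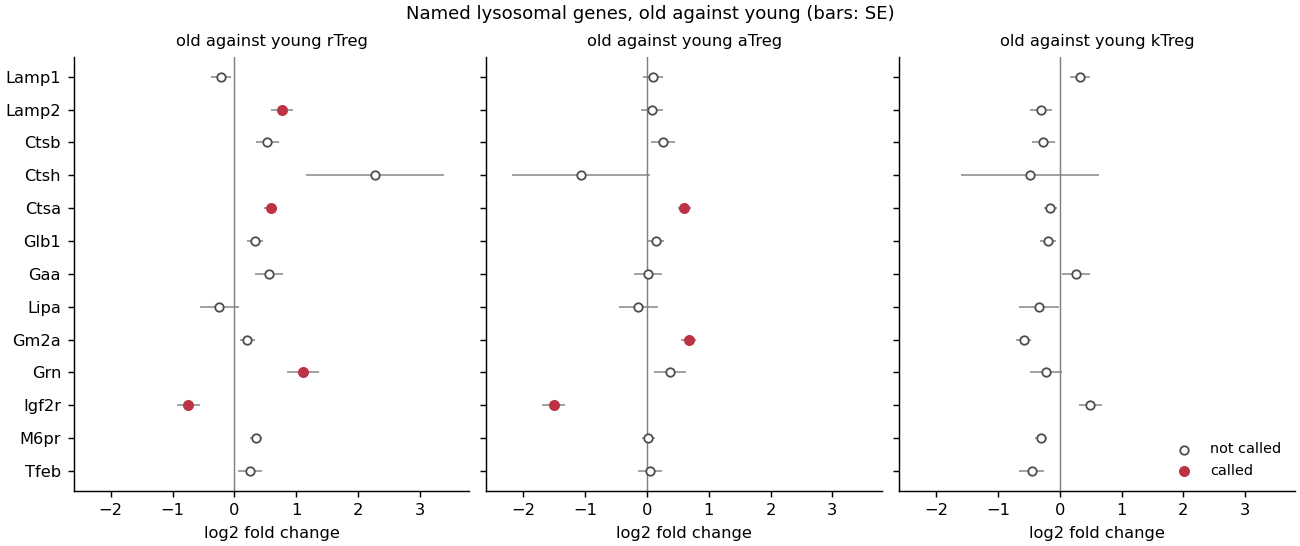
Log2 fold changes (horizontal axis) of old against young mice in rTreg, aTreg and kTreg cells for the 13 members described by library. Points are limma estimates from 4 old and 4 young libraries, bars are SE, and filled points were called. Igf2r lies at -0.75 and -1.51 in the first 2 panels and at 0.50, not called, in the third.

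Whether the kTreg difference itself changed with age was tested as an interaction, positive where kTreg cells gained relative to the other subset with age. For kTreg against aTreg cells 3 members were called, 8.11% of them, against 0.156% of all genes. Igf2r had an interaction of 2.00 on the log2 scale (SE 0.26, adjusted p = 0.00198): young kTreg cells had 3.70-fold less than young aTreg cells, and old ones 1.08-fold more. Gm2a had an interaction of -1.26 (SE 0.17, adjusted p = 0.00221). Both held under all 45 alternatives. Ctsa had -0.76 (SE 0.15, adjusted p = 0.0363), and this call was lost in 21 of 32 fits that left out a library or a mouse, with values from -0.86 to -0.62 over all 32. All 3 were also called between old and young aTreg cells.

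For kTreg against rTreg cells 5 members were called, 13.5% of them, against 3.02% of all genes. Lamp2 (-1.07, SE 0.25, adjusted p = 0.0179), Ctsa (-0.74, SE 0.15, adjusted p = 0.00632), Gm2a (-0.79, SE 0.17, adjusted p = 0.0111) and M6pr (-0.65, SE 0.14, adjusted p = 0.0105) had smaller differences in old mice. Igf2r had an interaction of 1.24 (SE 0.26, adjusted p = 0.00920), its deficit going from 5.91-fold in young to 2.50-fold in old mice. Of these, Lamp2, Ctsa and Igf2r were also called between old and young rTreg cells. The old rTreg libraries had raised sums of macrophage, plasma cell and basophil markers, the first mostly from Lyz2. The part of these markers in the interactions was not tested. With the mouse as a replicate block 8 members were called, with Ctsz (-0.68), Man2b1 (-0.67) and Grn (-1.33) added. The share of all genes called with the block is not given here, so the added calls are not read as particular to the members. Leaving out a mouse gave counts from 2, without old mouse 1, to 9, without young mouse 2, with 3 without young mouse 1 and 3 without young mouse 3, and it was 8 without young rTreg replicate 2. By unadjusted p with the fold threshold 11 members were called, against 15% of all genes. The Lamp2 call was lost without young rTreg replicate 3 (-0.95, adjusted p = 0.0527), without young mouse 1 or 3 or old mouse 1, 3 or 4, and in a fit of only the groups compared (adjusted p = 0.0598). The Gm2a call was lost without young mouse 3 or old mouse 1, and the M6pr call without young mouse 1 or old mouse 1. For aTreg against rTreg cells limma called 0 members, against 1.56% of genes. At an unadjusted p below 0.05, 9 members differed, against 15.8% of all genes, and 3 of these passed the fold threshold, against 12.8%, and edgeR and DESeq2 each called 0.

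Beyond the members, 123 other lysosomal genes were tested in 5 lists. In kTreg against aTreg cells 8 of them were called higher and 0 lower by limma, 6.50% higher against 4.13% of all genes, with a median log2 fold change of 0.08. Among 32 other hydrolases 2 were higher, led by Lgmn, the asparaginyl protease legumain, at 2.12 (SE 0.19). Among 30 other membrane proteins and transporters 5 were higher, led by Laptm4b, a relative of Laptm4a, at 1.11 (SE 0.24). Among 17 other pump subunits 1 was higher, Atp6v0a1, at 0.98 (SE 0.24). The remaining lists were 24 genes of mannose 6-phosphate tagging and sorting and 20 TFEB relatives and genes of the nutrient sensing complex.

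Against rTreg cells 16 of the 123 were called higher and 2 lower in kTreg cells, 13.0% and 1.63% against 9.37% and 6.09% of all genes, with a median of 0.15. The hydrolases counted 6 higher, led by Dnase2a, the acid DNase, at 1.37 (SE 0.16). The membrane proteins counted 7 higher, led by Laptm4b at 1.95 (SE 0.24), and 2 lower, led by Mcoln3, a calcium channel related to Mcoln1, at -1.67 (SE 0.36). Atp6v0d2, a pump subunit, rose by 2.15 (SE 0.24), and 2 genes of the TFEB and nutrient sensing list were higher, led by Rptor at 0.80 (SE 0.26). In aTreg against rTreg cells 4 of the 123 were higher and 3 lower, 3.25% and 2.44% against 5.23% and 2.78% of all genes. Between old and young mice 6 of the 123 were higher and 0 lower in rTreg cells by limma, 4.88% higher against 4.12% of all genes. In aTreg cells 4 were higher and 2 lower, 3.25% and 1.63% against 1.85% and 0.86%, and in kTreg cells 1 was higher and 1 lower, 0.813% each against 1.02% and 0.235%. The tagging and sorting list held 3 of the 4 in aTreg cells, led by Ap1s2, a subunit of the AP-1 adaptor, at 1.03 (SE 0.17).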

How the data were processed

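RNA was measured in 24 libraries of rTreg, aTreg and kTreg cells from 8 mice. Per the labels and methods, cDNA came from SMART-Seq v4, and the authors aligned reads to GRCm39 with HISAT2 2.2.1 (SAMtools 1.13), counted them with HTSeq 1.99.2 and normalized with DESeq2 1.44.0. The authors deposited normalized counts (a signal, each gene's reads over the size factor of its library). A file of sample descriptions was not used. The annotation release, strand setting and treatment of multiply mapped reads are not given in the sources used here.

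All values (100%) were whole multiples of 1 read within 0.01 reads, and the recovered reads served edgeR 4.0.16 and DESeq2 1.42.0 as alternatives. For the main test, values were transformed as log2(value + 1) and fitted by limma 3.58.1 with trend (R 4.3.3), with 1 mean for each of the 6 groups. Genes had to reach 10 in 4 or more libraries, which left 16630. Subset contrasts weighted the ages equally. Benjamini-Hochberg adjustment was over all genes, and a call needed an adjusted p below 0.05 and a fold above 1.5. The fit was tested on simulated data. Intervals from reads would cover counting error only, so the spread between mice was the error. Gene positions and transcript lengths came from GENCODE M39, and promoters from RefSeq.

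The design gives the same 8 mice for all subsets, and libraries with the same age and number were taken as 1 mouse, which the labels do not state. Deviations from group means of such libraries correlated with medians of 0.153 (rTreg and aTreg), 0.0911 (rTreg and kTreg) and 0.115 (aTreg and kTreg), and with lowest values of -0.0636, 0.0387 and 0.0644. Between numbers the medians were -0.0331, -0.034 and -0.0507.

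All members are reported by role. Values by library are given for members called in a subset comparison over both ages or in an age comparison and for Lamp1, Gm2a, Glb1 and Tfeb, for young libraries of Ctsz, Man2b1 and Npc2, chosen after their calls within young mice were seen, and of other lists the called gene with the smallest p per direction. The members and lists were chosen with earlier results of these data known.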

Additional observations from a re-analysis of the deposited data

Results flagged for a closer look

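In 78 combinations of 13 members and 6 groups of 4 libraries, 8 held a library far from the other 3, where chance flags about 1 group in 20. Young mouse 2 gave 5 of them: Ctsb at 45567 and Grn at 5459 in young kTreg replicate 2, Ctsh at 614 in young rTreg replicate 2 and 587 in young aTreg replicate 2, and Tfeb at 883 in young rTreg replicate 2. All of these were higher than in the other 3 libraries, and these libraries had the highest macrophage and monocyte marker sums of their groups. The other flags were Ctsb at 17958 in young aTreg replicate 4, Gm2a at 10170 in old kTreg replicate 4 and M6pr at 14064 in old kTreg replicate 3.

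The difference between subsets changed with age, by limma's interaction test, in 5 genes. Between kTreg and aTreg cells these were Ctsa (-0.76), Gm2a (-1.26) and Igf2r (2.00). Between kTreg and rTreg cells they were Lamp2 (-1.07), Ctsa (-0.74), Gm2a (-0.79), Igf2r (1.24) and M6pr (-0.65), all on the log2 scale.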

How the results depend on the processing

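Of 32 calls of members in 9 comparisons, 16 were kept under all 45 alternatives, and none changed sign. Without the fold threshold, 9 members were called in kTreg against aTreg, 18 in kTreg against rTreg and 9 in aTreg against rTreg cells, where 12.1%, 22.8% and 10.5% of all genes were. In old against young kTreg cells 1 member, Mcoln1, was called by unadjusted p with the fold threshold. Another, Gm2a, was called with TMM scaling, with edgeR, with DESeq2, without the fold threshold and without the 3 libraries that stand apart. This last setting, chosen after seeing the data, left out young kTreg replicates 2 and 4 and old aTreg replicate 2, and gave 1 call in old against young aTreg cells. For the interaction of age with kTreg against rTreg cells, 8 members were called with the replicate block, 10 with DESeq2 and 11 by unadjusted p, and for that with aTreg against rTreg cells 3 by unadjusted p. The shares of all genes called with the block or with DESeq2 are not given here. The block moved no other count by over 1.5 times. The causes were not tested.

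Leaving out a library or a mouse gave 3 to 7 calls in kTreg against aTreg, 7 to 10 in kTreg against rTreg, 2 to 4 in aTreg against rTreg, 0 to 8 in old against young rTreg, 1 to 3 in aTreg and 0 to 1 in kTreg cells. The interactions gave 2 to 3 (kTreg against aTreg), 2 to 9 (kTreg against rTreg) and 0 to 1 (aTreg against rTreg). With 4 mice a group and calls near 1.5-fold, a missed call does not show equal levels. CACGTG was in 9 and TCACGTG in 8 promoters when only the bases before the RefSeq start were searched.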

Other observations

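Of the lysosomal genes outside the 37, Lgmn, which encodes the protease legumain, was called lower in old mice in both kTreg and aTreg cells. Lgmn was 2032, 2722, 1421 and 2119 in young kTreg cells and 462, 501, 810 and 416 in old ones, and the 2 ages did not overlap. In aTreg cells it was 265, 625, 397 and 485 in young and 98.1, 186, 123 and 139 in old mice. In rTreg cells the medians were 369 in young and 665 in old mice. For Lgmn the log2 fold change of old against young mice was -1.93 in kTreg (SE 0.27) and -1.66 in aTreg cells (SE 0.27), and its interaction of age with kTreg against rTreg cells was -2.72 (SE 0.39).

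Atp6v0d2, a pump subunit, was higher in old mice in rTreg (2.88 on the log2 scale, SE 0.34) and aTreg cells (1.54, SE 0.34). Its group medians went from 61.2 in young rTreg over 325 in young aTreg to 532 in young kTreg cells, and from 557 over 1019 to 1424 in old mice. Cd63, a membrane protein of late endosomes, was 492, 366, 1796 and 707 in old rTreg libraries and at most 88.7 in the other 20. The old rTreg libraries had raised sums of basophil and macrophage markers, the latter mostly from Lyz2. The part of other cells in the Cd63 values was not tested.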
